A study of Homo sapiens with 24 samples.

Results

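Solute carriers are the membrane proteins that move amino acids, sugars, ions, vitamins and neurotransmitters across the cell surface and into organelles. The 63 solute carrier genes described here are those whose symbol begins with SLC in the supplementary list of genes that differed between FOXP1 and GFP cultures of at least 1 of 3 human neuroblastoma cell lines. They are 63 of the 3503 gene symbols read from that list, and the arrays carried 43291 features besides control spots. The members were therefore chosen on the FOXP1 against GFP difference in these same arrays, so that difference is given below as a description without a test. The list could be read in part only, with 642 of 855 entries held for SK-N-BE(2), 1997 of 2370 for IMR-32 and 1489 of 1489 for CHP-212. Listed therefore means found in the entries read, and a member may also stand in the unread entries for IMR-32 or SK-N-BE(2). Of the members, 21 were listed for IMR-32 alone, 21 for CHP-212 alone and 11 for SK-N-BE(2) alone, while 5 were listed for both IMR-32 and CHP-212 and 5 for both IMR-32 and SK-N-BE(2). Each member had 1 probe in the list. SLC9A3R2 carries the prefix by name only, since it encodes a scaffold protein that binds sodium/proton exchangers.

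Neuroblastoma arises from the sympathoadrenal lineage of the neural crest, and many of these tumours make and store catecholamines. Cells of this lineage load noradrenaline and dopamine into vesicles through the vesicular monoamine transporters SLC18A1 and SLC18A2 and take noradrenaline back up through SLC6A2, the protein that also brings the imaging agent MIBG into tumour cells. Other solute carriers set the supply of glutamine, glucose and citrate, the chloride and pH balance of the cell, and the traffic of ATP and glutamate across the inner mitochondrial membrane.

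Total RNA was labelled with Cy3 and hybridised to 44K one-colour oligonucleotide arrays, 24 in all. Cells of each line, CHP-212, IMR-32 or SK-N-BE(2), carried either FOXP1, a forkhead transcription factor, or GFP under a doxycycline-controlled retroviral promoter, and each of the 6 cultures was sampled at 0, 12, 24 and 72 h. The hours count from the induction of the transgene with doxycycline. The groups were thus IMR-32 with GFP, IMR-32 with FOXP1, CHP-212 with GFP, CHP-212 with FOXP1, SK-N-BE(2) with GFP and SK-N-BE(2) with FOXP1, with 4 arrays each, 1 per time point. The cultures were polyclonal, and the authors report leakage of the promoter. The 4 arrays of a group were time points of 1 culture and not independent cultures, so an SD or a p here measures the spread between these samples. Each of the 6 slides held 4 arrays of 1 line, so slide and line cannot be told apart. A level is the log2 signal of a probe minus the log2 of the 75th percentile of its array, and the values of 4 arrays are always given in the order 0, 12, 24 and 72 h. In these bulk samples, fewer cells of a type and less RNA per cell cannot be told apart.

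The 4 CHP-212 arrays of 0 and 12 h stood apart from the others. On these arrays 60.45, 58.1, 53.91 and 55.7% of probes were well above background, against 72.78 to 82.33% on the other 20 arrays. Their weakest probe called well above background had a signal of 27.198 to 90.001, against 8.878 to 27.692 elsewhere, so the floor for dim genes was higher on them. In SK-N-BE(2), the array labelled FOXP1 at 24 h also stood apart, being the highest of its group of 4 for 48.3% of probes. Some of the results below are given with and without these arrays, the others with them only. The 75th percentile of signal ranged from 397.8 to 2142.0 over the 24 arrays.

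The FOXP1 probe served to check the labels. In IMR-32 its level was 1.05, 1.19, 1.39 and 1.18 in the GFP culture and 2.60, 2.76, 2.66 and 2.38 in the FOXP1 culture. In CHP-212 it was 0.77, 1.21, 1.08 and 1.05 with GFP and 2.81, 3.28, 3.00 and 2.94 with FOXP1. The FOXP1 arrays thus lay above every GFP array in both lines, already at 0 h, by 2.64-fold and 3.94-fold on average. In SK-N-BE(2) the level was 3.00, 3.30, 2.87 and 2.81 with GFP and 2.97, 2.84, 2.63 and 2.73 on the arrays labelled FOXP1, so the groups overlapped and the transgene was not visible at this probe. The SK-N-BE(2) arrays are therefore called arrays labelled FOXP1 throughout. The paper, in contrast, shows inducible FoxP1 protein by Western blot in its FOXP1 against GFP lines. For SK-N-BE(2) it also reports a strong induction of TNFSF10, and fewer viable cells and soft agar colonies with FOXP1 than with GFP. Of the marker genes considered, a probe could be named for 5 of 12 sympathetic neuroblast genes, 2 of 12 mesenchymal or Schwann cell genes and 1 of 5 blood genes. The mesenchymal gene PRRX1 and the leukocyte gene PTPRC were well above background on no array, and the Schwann cell gene CDH19 was so on 1 array. TFAP2B, a transcription factor of sympathetic precursors, was at 3.80, 4.24, 4.06 and 4.28 in SK-N-BE(2) GFP cells, at -1.95, -1.42, -0.60 and -0.67 in IMR-32 GFP cells, against 4.30, 4.35, 4.80 and 4.56 in the IMR-32 FOXP1 culture, and at -6.55, -6.41, -7.22 and -6.27 in CHP-212 GFP cells, where it was well above background on 1 array.

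Of the 63 members, 16 were well above background on all 24 arrays and 47 on some. To be counted in a line, a probe had to exceed background clearly on 4 or more of its 8 arrays. In IMR-32, 44 members were counted, and 13 were at least 2-fold higher in the FOXP1 culture with no overlap between the 4 arrays of each culture, which 6.03% of all counted probes were. In the same line 15 members were at least 2-fold lower without overlap, against 5.62% of all counted probes. In CHP-212, 7 of 39 counted members were higher and 4 were lower in this way, against 2.31 and 1.52% of all counted probes. Without its slide of 0 and 12 h, and so with 2 arrays against 2, 14 of 48 counted members were apart in this way, 9 of them higher, as were 1923 of 35156 counted probes. In SK-N-BE(2), 2 of 46 were higher and 2 were lower, against 0.79 and 0.576%. Counting differences of any size without overlap, 15 members were higher and 16 lower in IMR-32 (13.4 and 12.8% of all counted probes), 9 were higher and 5 lower in CHP-212 (7.73 and 6.32%), and 2 were higher and 4 lower in SK-N-BE(2) (2.73 and 3.19%). The choice of members fixes these shares, and nothing is read from them. With a background-corrected signal the members at least 2-fold apart without overlap numbered 18 in IMR-32 in place of 28 and 7 in CHP-212 in place of 11. Here and below, that signal came from the median signal and background of each spot and not from the processed signal. Input and correction thus changed together. The median difference of the counted members was 0.10 in SK-N-BE(2), 0.08 in CHP-212 and -0.19 in IMR-32, beside -0.01, 0.02 and -0.01 over all counted probes. Among listed members read above background in both cultures of their line, the one just inside the 2-fold mark was SLC1A4 at 1.04 in SK-N-BE(2), SLC16A14 at -1.03 in IMR-32 and SLC43A2 at 1.02 in CHP-212. Just outside it were SLC17A3 at 0.77 in CHP-212 and SLC41A2 at 0.97 in SK-N-BE(2), and no such IMR-32 member was outside.

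**Figure D1:**
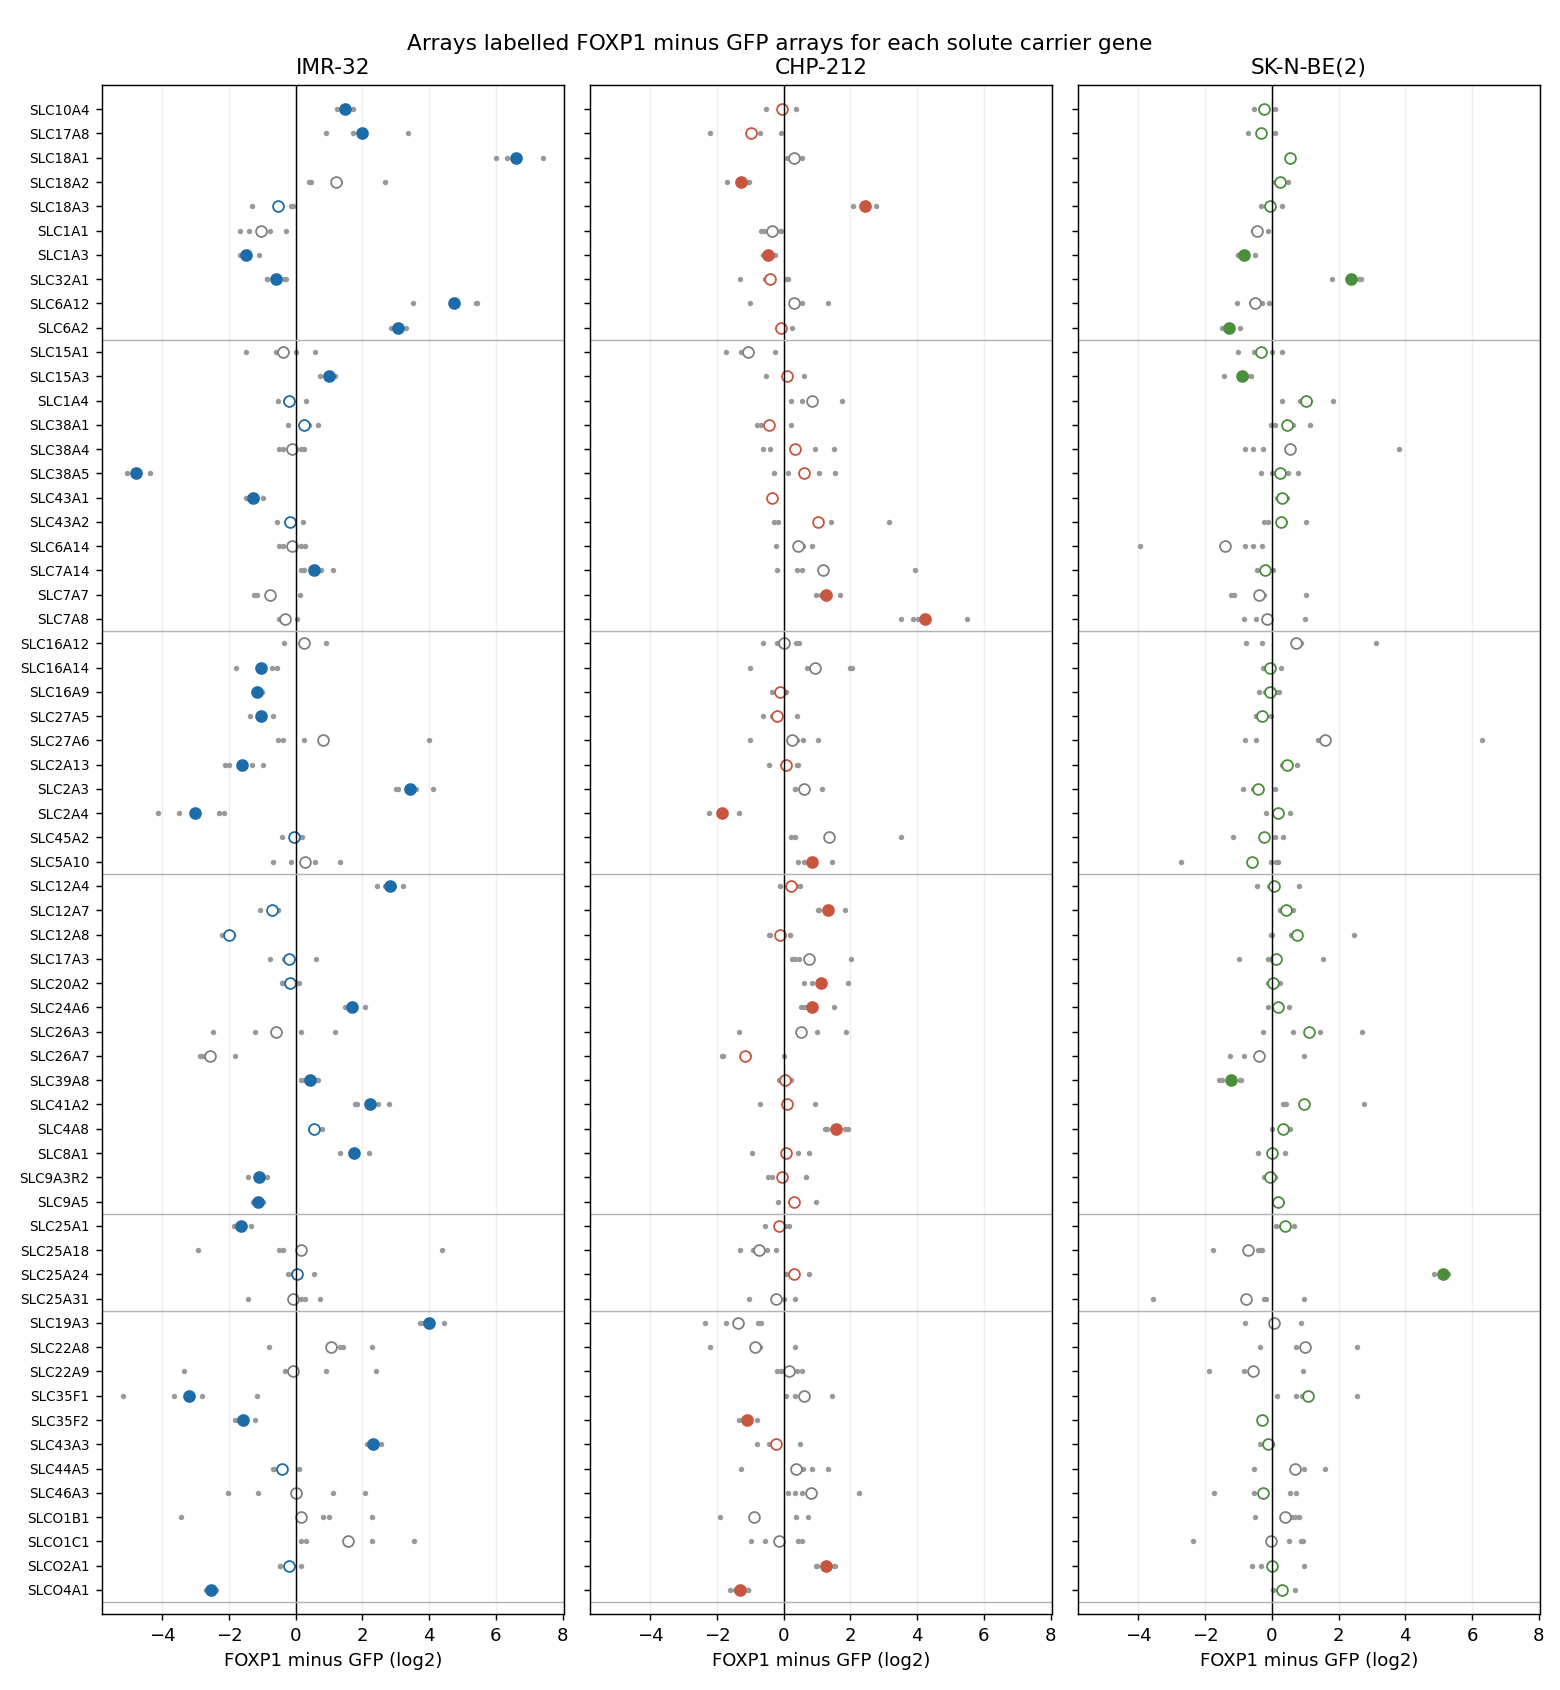
FOXP1 minus GFP log2 difference (x axis) of solute carrier genes (y axis) in each line, with the large point the mean over 4 time points and the small grey points the difference at each time. Filled points mark members whose 4 FOXP1 and 4 GFP arrays did not overlap, open points those that did and grey open circles those well above background on fewer than 4 of 8 arrays, grey lines separate the roles, and most filled points lie in IMR-32.

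The vesicular monoamine transporter SLC18A1 had the largest difference of all members. In IMR-32 its level was -7.63, -6.73, -7.13 and -5.83 with GFP and -1.31, -0.73, 0.27 and 0.81 with FOXP1. Every FOXP1 array lay far above every GFP array, 96.3-fold on average, and the FOXP1 value was higher at each later time point. In SK-N-BE(2) the gene was bright in both cultures, at -0.66, -1.04, -0.68 and 0.91 with GFP and -0.06, -0.59, -0.05 and 1.47 on the arrays labelled FOXP1, with 72 h the highest in each. In CHP-212 the probe was above background on no array, at -6.67, -6.59, -6.87 and -6.76 with GFP and -6.11, -6.20, -6.68 and -6.64 with FOXP1. SLC18A1 was above background on 2 of 4 arrays in IMR-32 with GFP and on 4 of 4 with FOXP1, so its fold there rests on a GFP level near the floor.

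SLC18A2, the monoamine transporter of neuronal vesicles, was ordered differently. It was at -2.46, -2.68, -3.12 and -3.11 in CHP-212 with GFP and at -3.51, -4.39, -4.16 and -4.42 with FOXP1. The FOXP1 arrays were all lower, by 2.43-fold on average, with 3 of 4 above background. In SK-N-BE(2) the levels were -4.54, -4.69, -4.83 and -3.69 with GFP and -4.43, -4.20, -4.57 and -3.56 on the arrays labelled FOXP1, which overlapped. In IMR-32 the levels were -6.38, -7.27, -7.35 and -7.79 with GFP, above background on no array, and -5.94, -6.86, -6.04 and -5.10 with FOXP1, above background on 2 arrays.

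The plasma membrane noradrenaline transporter SLC6A2 differed in IMR-32 and SK-N-BE(2). In IMR-32 it was at -0.49, -1.04, -0.96 and -0.51 with GFP and at 2.42, 1.81, 2.35 and 2.66 with FOXP1, which was 8.33-fold higher without overlap. In SK-N-BE(2) it was at 3.58, 3.36, 3.27 and 3.29 with GFP and at 2.61, 1.97, 1.77 and 2.02 on the arrays labelled FOXP1, which was 2.43-fold lower without overlap. In CHP-212 it was dim in both cultures, at -5.91, -6.34, -5.30 and -5.40 with GFP and -6.11, -6.08, -5.47 and -5.55 with FOXP1. The direction was thus opposite in IMR-32 and SK-N-BE(2), a contrast between lines that was not tested.

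**Figure D2:**
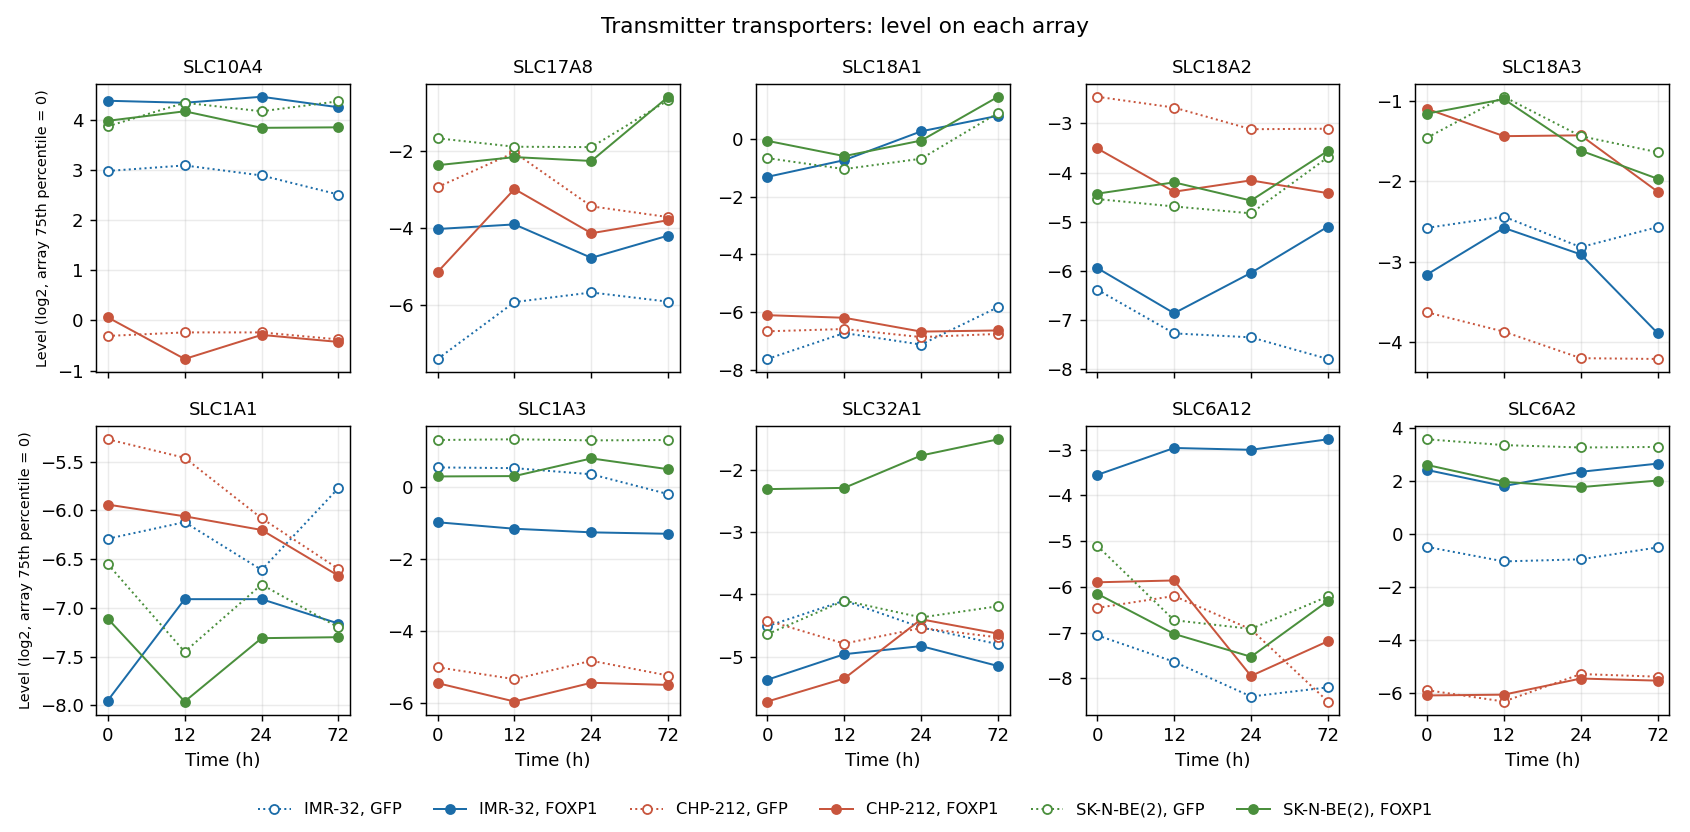
Level of the 10 transmitter transporter genes (y axis, log2 relative to the 75th percentile of the array) on each array against time in hours (x axis), with SK-N-BE(2) in green, IMR-32 in blue and CHP-212 in red, and filled points and solid lines for FOXP1 and open points and dotted lines for GFP. SLC18A1, SLC6A12 and SLC6A2 show the IMR-32 FOXP1 culture far above the IMR-32 GFP culture at every time.

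Among carriers of other transmitters, SLC18A3, which loads acetylcholine into vesicles, stood out in CHP-212. It was at -3.63, -3.87, -4.20 and -4.21 with GFP and at -1.10, -1.44, -1.43 and -2.13 with FOXP1, 5.48-fold higher without overlap. In IMR-32 it was at -2.58, -2.44, -2.82 and -2.57 with GFP and -3.16, -2.58, -2.91 and -3.89 with FOXP1, and in SK-N-BE(2) at -1.46, -0.95, -1.44 and -1.64 with GFP and -1.16, -0.98, -1.62 and -1.97 on the arrays labelled FOXP1. Both of those pairs overlapped. SLC32A1, the vesicular carrier of GABA and glycine, differed most in SK-N-BE(2). There it was at -4.64, -4.10, -4.37 and -4.19 with GFP and at -2.31, -2.29, -1.77 and -1.51 on the arrays labelled FOXP1, 5.12-fold higher without overlap, and the difference was 2.27 without the 24 h pair, beside 2.36 with it. In IMR-32 it was at -4.51, -4.10, -4.53 and -4.80 with GFP and -5.37, -4.96, -4.83 and -5.15 with FOXP1, all 4 lower by 1.51-fold on average, and in CHP-212 at -4.42, -4.79, -4.54 and -4.69 with GFP and -5.72, -5.35, -4.40 and -4.63 with FOXP1, which overlapped. The opposite signs of SLC32A1 in IMR-32 and SK-N-BE(2) were not tested against each other.

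SLC17A8 is the vesicular glutamate transporter found in scattered neurons that also release other transmitters. In IMR-32 it was at -7.41, -5.93, -5.68 and -5.92 with GFP and at -4.03, -3.91, -4.78 and -4.20 with FOXP1, 4.01-fold higher without overlap, with 3 of 4 GFP arrays above background. In CHP-212 the levels were -2.94, -2.04, -3.44 and -3.72 with GFP and -5.15, -2.99, -4.14 and -3.80 with FOXP1, lower at each time but overlapping. In SK-N-BE(2) they were -1.67, -1.89, -1.90 and -0.68 with GFP and -2.37, -2.16, -2.26 and -0.59 on the arrays labelled FOXP1, with the 72 h array the brightest of each culture. SLC10A4, a synaptic vesicle protein related to the bile acid carriers, was well above background on all 24 arrays. It was at 2.98, 3.09, 2.89 and 2.51 in IMR-32 with GFP and at 4.38, 4.34, 4.46 and 4.25 with FOXP1, 2.81-fold higher without overlap. It was at -0.31, -0.24, -0.24 and -0.38 in CHP-212 with GFP and 0.06, -0.77, -0.29 and -0.43 with FOXP1, and at 3.87, 4.34, 4.17 and 4.37 in SK-N-BE(2) with GFP and 3.98, 4.17, 3.84 and 3.85 on the arrays labelled FOXP1. Neither of these lines showed a separation of the cultures.

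The uptake carriers for amino acid transmitters went different ways. SLC6A12, which takes up betaine and GABA, was above background on no IMR-32 GFP array, at -7.06, -7.64, -8.40 and -8.20, and was at -3.55, -2.96, -3.00 and -2.77 with FOXP1. Where a group was above background on none of its arrays, its mean was replaced by the mean of the higher of the probe's own signal and the weakest signal called well above background on each array, and the fold is a lower bound. On this basis SLC6A12 was at least 11.3-fold higher with FOXP1 in IMR-32. It was above background on no CHP-212 array, at -6.46, -6.20, -6.93 and -8.51 with GFP and -5.90, -5.86, -7.95 and -7.19 with FOXP1, and was dim in SK-N-BE(2), at -5.10, -6.73, -6.92 and -6.21 with GFP and -6.15, -7.03, -7.53 and -6.31 on the arrays labelled FOXP1. SLC1A3, a glutamate and aspartate carrier best known from astrocytes and radial glia, was lower on the arrays labelled FOXP1 in all 3 lines. Its levels were 0.54, 0.52, 0.35 and -0.20 with GFP and -0.98, -1.16, -1.26 and -1.30 with FOXP1 in IMR-32, 2.79-fold lower. They were -5.00, -5.33, -4.82 and -5.23 with GFP and -5.44, -5.95, -5.43 and -5.49 with FOXP1 in CHP-212, 1.40-fold lower, and 1.30, 1.32, 1.29 and 1.30 with GFP and 0.29, 0.30, 0.79 and 0.49 on the arrays labelled FOXP1 in SK-N-BE(2), 1.78-fold lower. None of these 3 pairs of groups overlapped, although SLC1A3 was listed for IMR-32 alone in the entries read, and in CHP-212 the size is uncertain, as only 2 of 4 arrays of either culture were above background. SLC1A1, the neuronal glutamate carrier, was dim everywhere, at -6.29, -6.12, -6.61 and -5.77 with GFP and -7.95, -6.91, -6.91 and -7.16 with FOXP1 in IMR-32, at -5.27, -5.46, -6.08 and -6.60 with GFP and -5.94, -6.06, -6.20 and -6.67 with FOXP1 in CHP-212, and at -6.55, -7.45, -6.76 and -7.20 with GFP and -7.11, -7.96, -7.31 and -7.30 on the arrays labelled FOXP1 in SK-N-BE(2). Its IMR-32 groups did not overlap, and it was at least 1.38-fold lower there with FOXP1, with 2 of 4 GFP arrays above background.

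Other genes of transmitter synthesis, breakdown and storage were read from a list of 24, of which 12 had a probe that could be named, again only through the list of FOXP1 and GFP differences. In IMR-32 TH and DBH were higher in the FOXP1 culture without overlap, by 3.33 and 3.85 on the log2 scale, whereas the adrenaline-making enzyme PNMT was lower without overlap, at -0.66. TH, which makes the dopamine precursor, was at -1.22, -1.66, -1.46 and -0.29 with GFP and 2.03, 2.33, 1.87 and 2.46 with FOXP1. DBH, which converts dopamine to noradrenaline, was at -1.05, -1.36, -0.90 and 0.04 with GFP and 2.85, 2.96, 2.80 and 3.55 with FOXP1. These genes lay on the same side as SLC18A1 and SLC6A2 in that line, together with CYB561, which feeds electrons into the vesicle for DBH, at 3.29, the granule protein CHGB at 2.82, the GABA-making enzyme GAD1 at 2.52, the granule protein SCG2 at 1.86, and SPR at 1.34, while MAOA at 0.45 and SYP at 0.24 overlapped. In CHP-212 DBH differed by 2.07, with only 2 of 4 GFP arrays above background and a difference of 0.40 at 72 h, from -6.55, -6.53, -6.27 and -5.15 with GFP to -3.80, -3.64, -4.05 and -4.75 with FOXP1, and GAD2, above background on no GFP array, was at least 1.16-fold higher without overlap. In SK-N-BE(2) MAOA, which breaks monoamines down, was at 1.07, 1.37, 1.52 and 1.42 with GFP and -0.01, 0.30, 0.33 and 0.23 on the arrays labelled FOXP1, a difference of -1.13 without overlap. Higher without overlap in that line were PNMT at 1.04, CHGB at 0.77 and CYB561 at 0.59.

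Amino acid and peptide carriers showed a pair of large differences. SLC38A5, which carries glutamine, was at 0.97, 1.08, 0.40 and 1.04 in IMR-32 with GFP and at -3.89, -3.96, -3.98 and -3.78 with FOXP1. It was 27.4-fold lower, with no overlap, and the 24 h GFP array was lower than the others of its group. In CHP-212 it was at -3.90, -4.36, -3.81 and -3.78 with GFP and -2.36, -3.31, -3.67 and -4.06 with FOXP1, and in SK-N-BE(2) at -3.43, -3.19, -2.24 and -2.03 with GFP and -2.95, -3.18, -1.43 and -2.35 on the arrays labelled FOXP1. Every array of the IMR-32 GFP culture was thus above every array of the other 5 cultures. SLC7A8, an exchanger of large neutral amino acids, was at -5.49, -4.09, -5.35 and -5.57 in CHP-212 with GFP and at 0.00, -0.59, -1.33 and -1.71 with FOXP1, 18.6-fold higher without overlap and highest at 0 h, with 3 of 4 GFP arrays above background. It was above background on no array of the other lines.

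SLC15A3, a lysosomal carrier of histidine and small peptides, had opposite signs in 2 lines. In SK-N-BE(2) it was at -4.73, -4.68, -4.38 and -3.86 with GFP and -5.37, -5.46, -5.13 and -5.28 on the arrays labelled FOXP1, 1.86-fold lower without overlap. In IMR-32 it was at -6.73, -5.78, -6.26 and -5.96 with GFP and -5.55, -4.66, -5.22 and -5.24 with FOXP1, 2.02-fold higher without overlap with 2 of 4 GFP arrays above background. It was not among the entries read for that line. The opposite directions of SLC15A3 were not tested against each other. Of the other members of this role, the system L carrier SLC43A1 was 2.42-fold lower with FOXP1 in IMR-32, and SLC7A7, which exchanges basic and neutral amino acids, was 2.43-fold higher in CHP-212, both without overlap, though SLC7A7 was above background on only 2 of 4 arrays of either CHP-212 culture. Over all counted members of the role, the FOXP1 minus GFP difference ran from -0.90 to 1.04 in SK-N-BE(2), from -4.78 to 1.01 in IMR-32 and from -0.43 to 4.22 in CHP-212. The 24 h array labelled FOXP1 carried much of the listed difference of some SK-N-BE(2) members. Without that pair the neutral amino acid carrier SLC1A4 differed by 0.78 instead of 1.04 and SLC38A4 by -0.54 instead of 0.55. Neither size is certain for SLC38A4, which was above background on no GFP array and on 1 array labelled FOXP1 in this line.

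The glucose carriers SLC2A3 and SLC2A4 lay in opposite directions in IMR-32. SLC2A3, the high-affinity carrier of neurons, was above background on no GFP array, at -8.41, -9.22, -8.29 and -8.33, and was at -4.81, -5.11, -5.23 and -5.33 with FOXP1, at least 2.73-fold higher. SLC2A4, the insulin-responsive carrier, was at -4.18, -3.86, -3.42 and -2.74 with GFP and -6.34, -6.17, -7.55 and -6.24 with FOXP1, above background on 3 of 4 arrays, 8.14-fold lower. Neither pair of groups overlapped. SLC2A4 was lower in CHP-212 too, at -3.37, -3.83, -2.92 and -2.92 with GFP and -4.72, -5.71, -5.17 and -4.78 with FOXP1, 3.57-fold and without overlap, with 2 of the 4 FOXP1 arrays above background. In SK-N-BE(2) its groups overlapped, at -5.36, -5.79, -5.07 and -4.67 with GFP and -5.19, -5.63, -4.51 and -4.84 on the arrays labelled FOXP1. SLC2A3 was dim in CHP-212, at -6.10, -6.00, -5.88 and -6.39 with GFP and -5.54, -5.64, -5.54 and -5.24 with FOXP1, the FOXP1 arrays 1.52-fold higher without overlap but above background on only 1 GFP and 2 FOXP1 arrays, and in SK-N-BE(2) it was at -5.31, -5.06, -4.96 and -4.08 with GFP and -5.68, -5.61, -5.82 and -3.99 on the arrays labelled FOXP1. Other members of this role at least 2-fold lower with FOXP1 in IMR-32 without overlap included the proton-coupled inositol carrier SLC2A13 at -1.60 and the monocarboxylate family member SLC16A9 at -1.16. SLC27A6, a fatty acid transport protein listed for SK-N-BE(2), rested on 1 array, with a difference of 1.60 over 4 times and 0.03 without the 24 h pair.

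Ion and metal transporters were the largest role, with 15 members, 14 of them counted in SK-N-BE(2) and 13 in each of the other lines. SLC4A8, a sodium-driven chloride and bicarbonate exchanger of neurons, was at -3.07, -3.94, -3.26 and -3.28 in CHP-212 with GFP and -1.84, -2.64, -1.43 and -1.34 with FOXP1. The potassium chloride cotransporter SLC12A7 was at -2.97, -3.17, -3.21 and -3.50 with GFP and -1.59, -1.33, -2.20 and -2.45 with FOXP1 in the same line. Both genes were higher with FOXP1 without overlap, SLC4A8 by 2.98-fold and SLC12A7 by 2.50-fold. In the other lines SLC12A7 overlapped, at -5.67, -5.23, -5.02 and -4.52 with GFP and -6.20, -5.75, -5.79 and -5.58 with FOXP1 in IMR-32, and at -5.11, -5.60, -4.76 and -4.58 with GFP and -4.86, -4.95, -4.21 and -4.35 on the arrays labelled FOXP1 in SK-N-BE(2). SLC39A8, a zinc and manganese importer, was at -1.01, -0.56, -0.48 and -1.03 in SK-N-BE(2) with GFP and -2.61, -2.06, -1.39 and -1.97 on the arrays labelled FOXP1. It was 2.35-fold lower there without overlap, while in IMR-32 it was at 0.24, 0.47, 0.42 and -0.01 with GFP and 0.88, 0.72, 0.57 and 0.65 with FOXP1, and in CHP-212 at 0.25, 0.57, 0.06 and 0.34 with GFP and 0.31, 0.42, 0.27 and 0.36 with FOXP1. The sodium calcium exchanger SLC8A1 was 3.37-fold higher with FOXP1 in IMR-32, again without overlap. In SK-N-BE(2) the magnesium transporter SLC41A2 differed by 0.97 and SLC12A8 by 0.76, or 0.38 and 0.20 without the 24 h pair. Both were also listed for IMR-32, where SLC41A2 differed by 2.22 without overlap, with 3 of 4 GFP arrays above background. SLC12A8 was lower with FOXP1 at each time there, with a mean difference of -2.01. Its IMR-32 groups overlapped, and 1 of 4 FOXP1 arrays was above background.

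The clearest difference in SK-N-BE(2) was that of SLC25A24, which exchanges ATP-magnesium for phosphate across the inner mitochondrial membrane. It was above background on no GFP array, at -8.72, -8.43, -8.41 and -8.25, and on all 4 arrays labelled FOXP1, at -3.52, -3.25, -3.14 and -3.38. It was at least 8.12-fold higher, and the log2 difference was 5.13, or 5.08 without the 24 h pair. In IMR-32 it was at 1.90, 2.29, 2.25 and 2.06 with GFP and 2.46, 2.17, 2.17 and 1.83 with FOXP1, and in CHP-212 at 1.61, 1.81, 1.46 and 1.61 with GFP and 2.39, 2.03, 1.65 and 1.67 with FOXP1. SLC25A24 was thus well above background in both cultures of the other lines, and SK-N-BE(2) with GFP was the only culture above background on no array. The citrate carrier SLC25A1 was lower in IMR-32 with FOXP1, at 0.02, 0.85, 0.11 and 0.22 against 1.59, 2.20, 1.95 and 2.05 with GFP, and overlapped in the other lines.

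**Figure D3:**
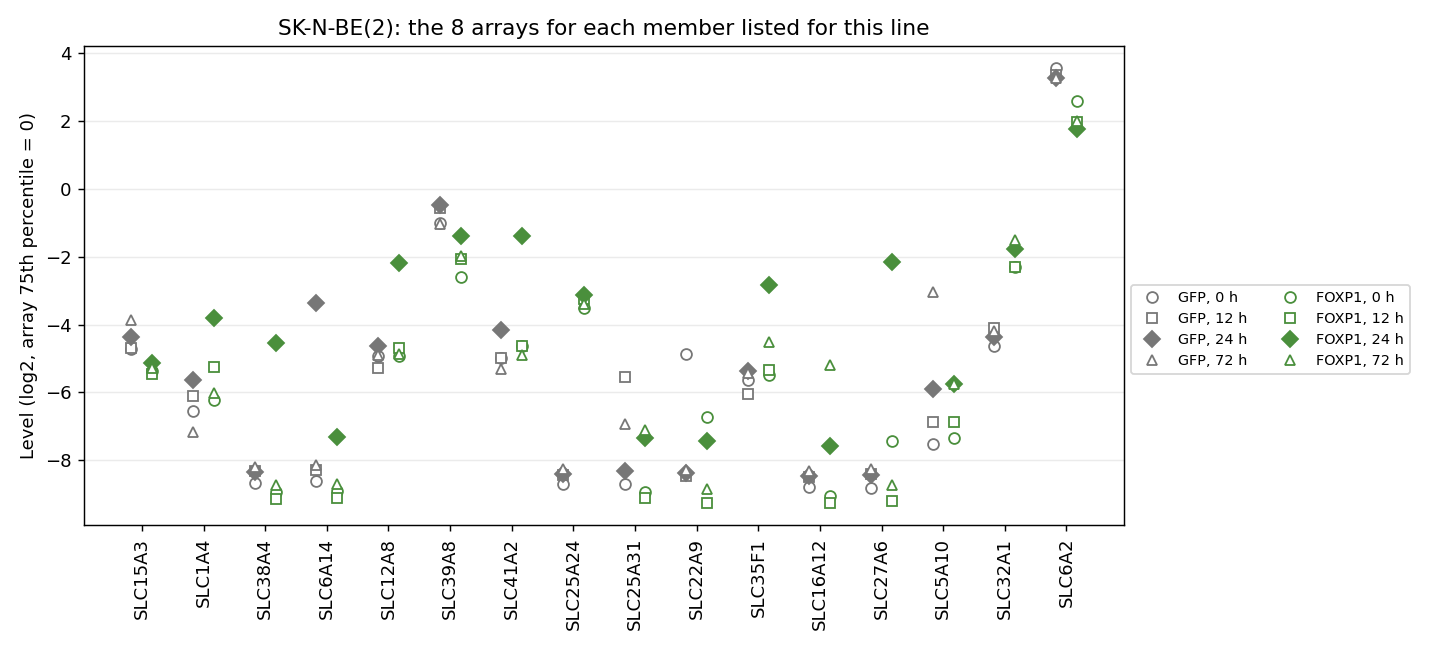
Level (y axis, log2 relative to the 75th percentile of the array) of the 16 members listed for SK-N-BE(2) (x axis) on the 8 arrays of that line, in grey for GFP and in green for arrays labelled FOXP1, with the shape of the marker giving the time and filled diamonds the 24 h arrays. The 24 h array labelled FOXP1 was the highest of the 8 for 7 of the 16 members, beside 30.4% of all counted probes.

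Of the 16 members listed for SK-N-BE(2), 8 were at least 2-fold apart, and without the 24 h pair only SLC25A24, SLC32A1, SLC6A2 and SLC39A8 of these still were. SLC25A31 and SLC22A9, too dim to be counted, passed 2-fold only without that pair. Among organic anion, vitamin and other carriers, SLC19A3, which imports thiamine, was above background on no IMR-32 GFP array, at -8.74, -9.42, -8.34 and -8.44, and was at -4.79, -4.97, -4.53 and -4.72 with FOXP1. It was at least 3.53-fold higher with FOXP1. In CHP-212 it was dim, at -5.43, -5.43, -5.39 and -5.50 with GFP and -6.10, -6.19, -7.11 and -7.86 with FOXP1, the FOXP1 culture above background on no array, and it was above background on no array of SK-N-BE(2). SLC35F1, whose substrate is not settled, was at -3.31, -3.93, -3.60 and -3.05 in IMR-32 with GFP and -8.48, -5.10, -6.42 and -6.70 with FOXP1, 9.21-fold lower without overlap. The size of that difference is uncertain, since the FOXP1 culture was above background on 1 of 4 arrays and the log2 difference was -5.17 at 0 h but -1.17 at 12 h. In CHP-212 it was at -6.27, -6.14, -5.92 and -6.44 with GFP and -5.72, -5.81, -5.86 and -4.99 with FOXP1, 1.51-fold higher without overlap but above background on only 1 GFP and 2 FOXP1 arrays, and in SK-N-BE(2) at -5.65, -6.06, -5.38 and -5.43 with GFP and -5.48, -5.35, -2.84 and -4.51 on the arrays labelled FOXP1, where the difference of 1.09 became 0.60 without the 24 h pair.

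SLCO4A1, an organic anion carrier that takes up thyroid hormone, was lower with FOXP1 in both lines in which the FOXP1 probe was higher. It was at 0.06, -0.21, 0.15 and -0.17 with GFP and -2.34, -2.72, -2.47 and -2.84 with FOXP1 in IMR-32, 5.87-fold lower. In CHP-212 it was at 0.65, 0.61, 0.20 and -0.24 with GFP and -0.43, -0.99, -0.86 and -1.70 with FOXP1, 2.46-fold lower. The groups of SLCO4A1 did not overlap in either line, whereas in SK-N-BE(2) they did, at 0.57, 0.94, 0.55 and 0.77 with GFP and 1.26, 0.99, 0.89 and 0.96 on the arrays labelled FOXP1, with a mean difference of 0.32. SLC35F2, a plasma membrane protein that imports the drug YM155, was at 1.70, 2.22, 1.72 and 1.48 with GFP and 0.49, 0.39, 0.25 and -0.29 with FOXP1 in IMR-32. It was at 2.04, 1.96, 2.28 and 2.24 with GFP and 1.26, 0.61, 1.18 and 1.08 with FOXP1 in CHP-212, and at 2.25, 2.51, 2.63 and 2.62 with GFP and 1.94, 2.17, 2.43 and 2.27 on the arrays labelled FOXP1 in SK-N-BE(2). SLC35F2 was 2.97-fold lower in IMR-32 and 2.14-fold lower in CHP-212, without overlap in either. In SK-N-BE(2) the groups overlapped, though the difference was negative at each time, at -0.31, -0.34, -0.20 and -0.35.

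The lines were compared through their GFP arrays alone, 4 against 4, to ask how the carriers differ between the lines in cells without the FOXP1 transgene. A member was open to this test only if it was listed for neither line of the pair, and it was tested if at least 4 of the 8 arrays read its probe as well above background. An unread entry for IMR-32 or SK-N-BE(2) could have closed a test that was run here. A difference was called at an adjusted p under 0.05 in limma and at least 2-fold. Between IMR-32 and CHP-212, 6 of 11 open members were tested and 2 were called, 1 higher and 1 lower in IMR-32, beside 15.1 and 15.3% of all tested probes. SLC1A4, which carries alanine, serine and cysteine, was at -2.96, -3.75, -3.51 and -3.45 in IMR-32 and at -6.28, -5.80, -6.90 and -7.49 in CHP-212, above background on no CHP-212 array. All 4 IMR-32 arrays lay above all 4 CHP-212 arrays, at least 4.11-fold, with a log2 difference of 3.20 (SE 0.425, adjusted p = 1.38e-06). SLC5A10, a sodium-coupled mannose and fructose carrier of the kidney, was at -8.03, -8.35, -7.53 and -6.92 in IMR-32, above background on no array, and at -3.08, -3.58, -2.85 and -2.69 in CHP-212. It was at least 11.5-fold lower in all 4 IMR-32 arrays, with a log2 difference of -4.66 (SE 0.636, adjusted p = 2.05e-06). Each of the 2 calls needed all 4 arrays of its bright line to reach the test, so that without any 1 of those arrays 1 member was left. The other line was above background on no array, so the lower bounds describe these differences and nothing is read from the p. Without the CHP-212 slide of 0 and 12 h, SLC5A10 could no longer be tested and SLC1A4 differed by 3.78. The other tested members were SLC25A24 at 0.50 and SLC15A3 at -0.80, both under 2-fold, and SLC32A1 at 0.13 and SLC39A8 at -0.03.

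**Figure D4:**
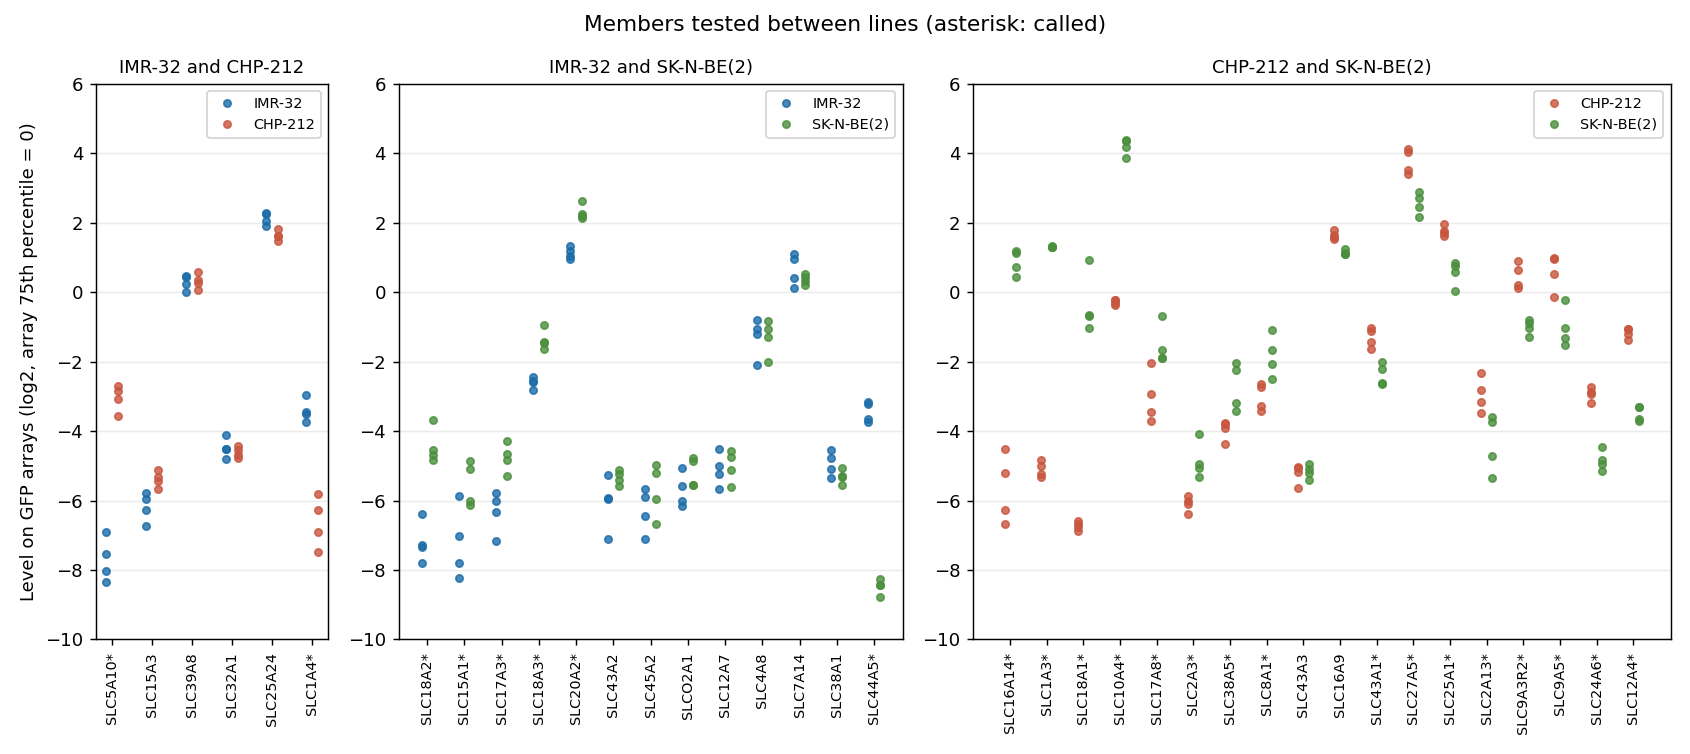
Level on the GFP arrays (y axis, log2 relative to the 75th percentile of the array) of members tested in each pair of lines (x axis), with 4 points per line and the lines by colour. An asterisk marks the members called, and in the CHP-212 and SK-N-BE(2) panel the farthest apart are SLC16A14, SLC1A3 and SLC18A1.

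Between IMR-32 and SK-N-BE(2), 13 of 21 open members were tested and 6 were called, 1 higher and 5 lower in IMR-32, beside 11.4 and 13.7% of all tested probes. SLC44A5, a choline transporter-like protein, was at -3.74, -3.64, -3.17 and -3.23 in IMR-32 and at -8.77, -8.42, -8.44 and -8.26 in SK-N-BE(2), above background on no SK-N-BE(2) array. It was at least 7.47-fold higher in IMR-32, by 5.03 on the log2 scale (SE 0.61, adjusted p = 6.46e-07), on 4 of 4 arrays. Among the lower members, SLC18A2 had the largest difference, at least 4.27-fold and -2.76 on the log2 scale (SE 0.348, adjusted p = 1.13e-06), from the levels given above, with every IMR-32 array below every SK-N-BE(2) array. The intestinal peptide carrier SLC15A1 was at -7.79, -5.86, -7.03 and -8.23 in IMR-32 and -6.13, -6.01, -5.10 and -4.85 in SK-N-BE(2), a difference of -1.71 (SE 0.611, adjusted p = 0.0269) with overlapping arrays and 1 of 4 IMR-32 arrays above background. SLC17A3, a urate and phosphate carrier, was at -6.32, -6.00, -7.16 and -5.79 in IMR-32 and -4.65, -5.28, -4.28 and -4.83 in SK-N-BE(2), a difference of -1.56 (SE 0.596, adjusted p = 0.038) without overlap and with 2 of 4 IMR-32 arrays above background. The calls of SLC15A1 and SLC17A3 were lost with a background-corrected signal, with quantile normalisation and in the authors' normalised values. SLC15A1 was not called without the 0 h (-1.52) or 72 h (-1.37) array of IMR-32 or the 24 h (-1.57) or 72 h (-1.48) array of SK-N-BE(2). SLC17A3 was not called without the 0 h (-1.56) or 24 h (-1.28) array of IMR-32 or the 0 h (-1.52), 24 h (-1.40) or 72 h (-1.58) array of SK-N-BE(2). That of SLC18A2 was also lost with the background-corrected signal. SLC44A5 needed all 4 IMR-32 arrays and SLC18A2 all 4 SK-N-BE(2) arrays to reach the test. Both were above background on no array of the other line, so their lower bounds describe the differences and nothing is read from their p. The vesicular acetylcholine carrier SLC18A3 at -1.23 and the phosphate carrier SLC20A2 at -1.17 were the other 2 members called lower.

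CHP-212 and SK-N-BE(2) differed in most of the members open to the test. Of 21, 19 were tested and 17 were called, 9 higher in CHP-212 and 8 lower, beside 14.2 and 16.2% of all tested probes. The median absolute difference of the tested members was 1.46, beside 0.61 over all tested probes. These members were listed for IMR-32 alone, and being bright enough to be tested in a line can itself go with a difference, so the count is no support for the members as a set. SLC1A3 was at -5.00, -5.33, -4.82 and -5.23 in CHP-212 and at 1.30, 1.32, 1.29 and 1.30 in SK-N-BE(2), 84.3-fold apart, a log2 difference of -6.40 (SE 0.174, adjusted p = 6.9e-18), of uncertain size because 2 of the 4 CHP-212 arrays were above background. SLC16A14, a monocarboxylate transporter family member of unknown substrate, was at -5.21, -4.52, -6.67 and -6.28 in CHP-212, above background on no array, and at 0.44, 1.12, 0.71 and 1.17 in SK-N-BE(2). It was at least 77.6-fold lower in CHP-212, by a log2 difference of -6.53 (SE 0.358, adjusted p = 8.1e-13). SLC18A1 was at least 34.0-fold lower, at -6.35 on the log2 scale (SE 0.477, adjusted p = 1.86e-10), from the levels given above. In each of these 3 genes all 4 CHP-212 arrays lay below all 4 SK-N-BE(2) arrays, and SLC16A14 and SLC18A1 needed all 4 SK-N-BE(2) arrays to reach the test. These latter genes were above background on no CHP-212 GFP array, so their lower bounds describe the differences and nothing is read from their p. SLC10A4 followed at -4.48 (adjusted p = 9.01e-16), 22.4-fold lower.

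The 3 members with the largest calls toward CHP-212 were ion transporters, with smaller differences than the 3 called lowest. The potassium chloride cotransporter SLC12A4 was at -1.06, -1.06, -1.22 and -1.39 in CHP-212, while SK-N-BE(2) had -3.65, -3.32, -3.32 and -3.70, a difference of 2.32 (SE 0.212, adjusted p = 4.87e-09). The mitochondrial sodium calcium exchanger SLC24A6 was at -3.20, -2.74, -2.88 and -2.92 in CHP-212, while SK-N-BE(2) had -4.96, -5.14, -4.84 and -4.46, a difference of 1.91 (SE 0.223, adjusted p = 2.23e-07). SLC9A5, a sodium proton exchanger of the brain, was at 0.51, -0.15, 0.95 and 0.99 in CHP-212, while SK-N-BE(2) had -1.32, -1.52, -1.03 and -0.22, a difference of 1.60 (SE 0.355, adjusted p = 0.000681). All 4 CHP-212 arrays lay above all 4 SK-N-BE(2) arrays for each of these 3 genes. Among the other members called higher, SLC9A3R2, SLC2A13, SLC27A5, SLC25A1 and SLC43A1 differed by 1.46, 1.41, 1.21, 1.21 and 1.05. The other 4 called lower, SLC17A8, SLC2A3, SLC38A5 and SLC8A1, differed by -1.50, -1.24, -1.24 and -1.19, with SLC2A3 above background on 1 and SLC38A5 on 3 of the 4 CHP-212 arrays. With the background-corrected signal, which changed both input and correction, 10 of the 17 calls were left. Those lost included SLC2A3, SLC17A8, SLC38A5, SLC2A13, SLC8A1 and SLC43A1. Without the CHP-212 slide of 0 and 12 h 15 were left, SLC2A13 at 1.04 and SLC8A1 at -0.85 being lost. SLC43A1 came under 2-fold without the 24 h (0.99) or 72 h (0.96) array of CHP-212 or the 0 h (0.96) or 12 h (0.97) array of SK-N-BE(2). Without the 24 h array of SK-N-BE(2) SLC8A1 stood at -0.94, and without its 72 h array SLC2A3 stood at -0.99 and SLC17A8 at -1.21, none of them called. SLC16A9 at 0.49 and SLC43A3 at -0.07 were not called. For members that the list itself tied to a line, levels are a description, and the noradrenaline transporter SLC6A2 stood lowest in CHP-212 at a mean of -5.74 ± 0.48 (SD, n = 4), then at -0.75 ± 0.29 in IMR-32 and 3.37 ± 0.14 in SK-N-BE(2). SLC7A14, a lysosomal protein related to the cationic amino acid carriers, was above background on no CHP-212 GFP array and stood at 0.64 ± 0.46 in IMR-32 and 0.37 ± 0.14 in SK-N-BE(2), which overlapped.

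Of the other transmitter genes and the neuroblast markers, MAOA at 4.64 and PNMT at 1.87 were called higher in IMR-32 than in CHP-212. Between IMR-32 and SK-N-BE(2), SYP at -0.52 was not called. Between CHP-212 and SK-N-BE(2), SPR at 2.00, GAD1 at 1.75, TH at 1.17 and SCG2 at 1.07 were called higher in CHP-212, and TFAP2B at -10.71, CHGB at -8.86 and CYB561 at -1.47 were called lower. The sizes for TFAP2B and CHGB are uncertain, since they were above background on only 1 and 2 of the 4 CHP-212 GFP arrays. CHP-212 GFP cells thus had more TH and less SLC18A1 and CHGB than SK-N-BE(2) GFP cells.

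The promoters of the members were searched for the forkhead motif TGTTTAC, because the transgene is a forkhead factor. Of the 63 members, 46 were found in the RefSeq promoter table of GRCh38.p14, SLC24A6 and SLC9A3R2 under the present symbols SLC8B1 and NHERF2. In the 250 bases before the start, read on both strands, 1046 of 35116 promoters (2.98%) held the motif. Member matches on a chromosome that was set aside were not counted, though that chromosome was not removed from the 46 or the 35116. Elsewhere 2 members held the motif. These were SLC43A1, which was 2.42-fold lower with FOXP1 in IMR-32, at chr11:57514910-57515159 on the minus strand, and SLC5A10, the gene called lower in IMR-32 than in CHP-212, at chr17:18950426-18950675 on the plus strand. The capitals mark the motif, which lies on the opposite strand in both, its first base 24 bases before the start in SLC43A1 and 110 in SLC5A10. A match is a description of these letters and not a binding site.

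SLC43A1: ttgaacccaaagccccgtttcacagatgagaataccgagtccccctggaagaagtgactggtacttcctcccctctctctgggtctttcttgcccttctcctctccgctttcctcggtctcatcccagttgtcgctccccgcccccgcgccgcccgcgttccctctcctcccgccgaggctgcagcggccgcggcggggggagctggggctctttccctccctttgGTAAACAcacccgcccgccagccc

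SLC5A10: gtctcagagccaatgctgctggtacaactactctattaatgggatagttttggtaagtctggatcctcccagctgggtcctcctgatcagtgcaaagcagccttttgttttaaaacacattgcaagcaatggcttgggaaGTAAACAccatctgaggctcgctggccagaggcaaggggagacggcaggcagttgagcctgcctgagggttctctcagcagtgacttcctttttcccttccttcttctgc

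The 4 time points allowed a comparison over the 6 cultures, each culture against itself. At 12 h against 0 h, 42 members were tested, the other 21 being too dim, and 1 was called in limma, where 0.0727% of all tested probes were called higher and 2.53% lower. This was SLC4A8, whose levels are given above for CHP-212 and were -1.06, -2.10, -1.21 and -0.81 in IMR-32 with GFP, -0.28, -1.59, -0.77 and -0.36 in IMR-32 with FOXP1, -0.84, -2.01, -1.07 and -1.30 in SK-N-BE(2) with GFP, and -0.56, -1.51, -1.08 and -0.74 on the SK-N-BE(2) arrays labelled FOXP1. The lowest value of every culture was that of 12 h, and the 24 h value, read on another slide, was higher again in all 6. The 12 h minus 0 h difference was -1.04, -1.31, -0.87, -0.80, -1.17 and -0.95, and SLC4A8 fell by 1.02 on average on the log2 scale (SE 0.119, adjusted p = 0.00345), in 6 of 6 cultures. The call was lost without the culture block (-1.02), with the GFP cultures only (-1.02) and without SK-N-BE(2) (-1.003), though the difference stayed about as large. Without the CHP-212 slide of 0 and 12 h it was -1.12 and the call was kept. At an unadjusted p under 0.05 there were 7 members, against 4358 of all 33015 tested probes. The nearest to a call was SLC9A5, lower at 12 h in 6 of 6 cultures with a mean log2 difference of -0.56 (adjusted p = 0.177).

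**Figure D5:**
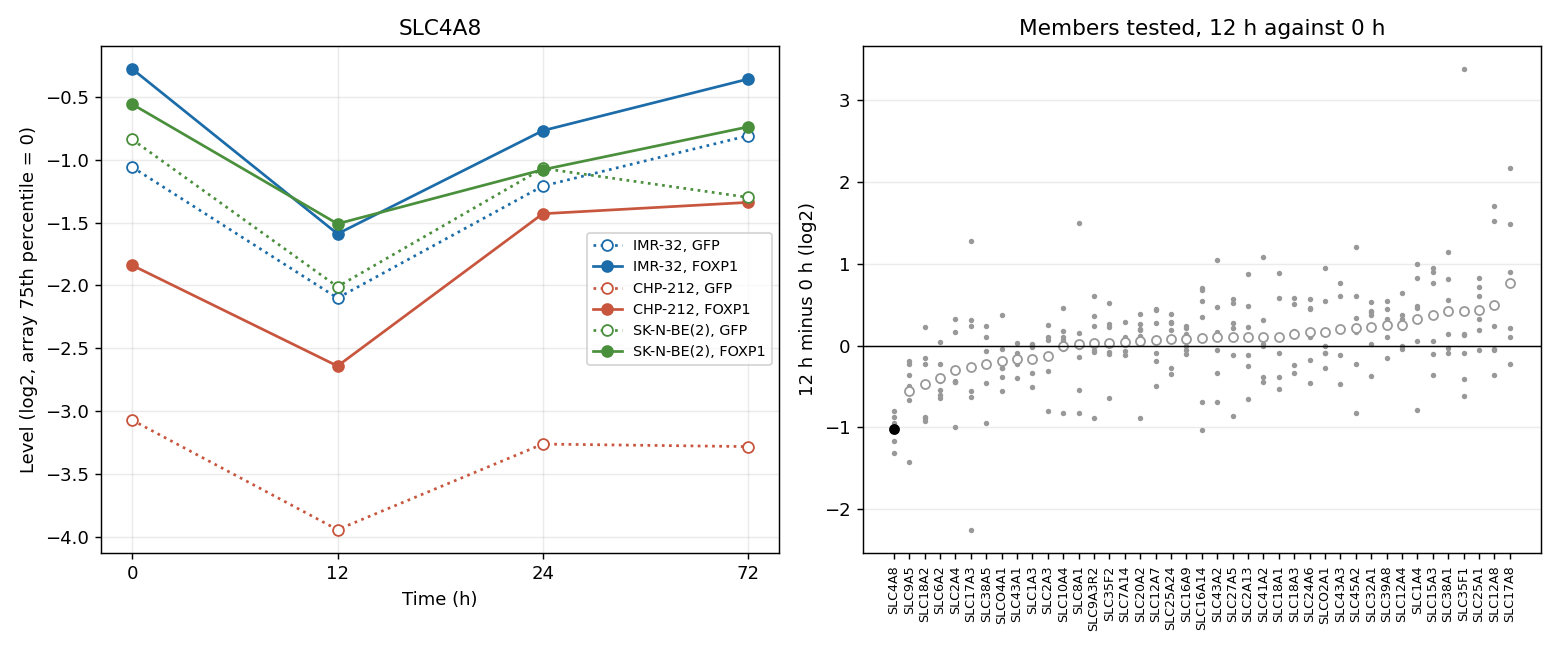
Left, level of SLC4A8 (y axis, log2 relative to the 75th percentile of the array) in each of the 6 cultures against time in hours, lowest at 12 h in each. Right, the 12 h minus 0 h log2 difference (y axis) of tested members (x axis), with grey dots for the 6 cultures, circles for their mean and the black circle for SLC4A8, the member called.

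At 72 h against 24 h no member was called in limma, and neither was any of the 34037 tested probes (0% higher and 0% lower). At an unadjusted p under 0.05 there were 4 of 42 tested members and 3116 of all tested probes. These were SLC41A2, SLC18A1, SLC20A2 and SLC12A8. SLC18A1 was higher at 72 h by 1.30 and 1.59 on the log2 scale with GFP in IMR-32, then SK-N-BE(2), and by 0.54 and 1.52 with FOXP1 in the same order, while CHP-212 was above background on no array and could show no change. Its adjusted p over all 6 cultures was 0.541. SLC41A2 was lower at 72 h in 6 of 6 cultures, with a mean log2 difference of -1.40 and the same adjusted p of 0.541. The outlying 24 h array of SK-N-BE(2) gave its largest value, -3.49, and the other 5 cultures lay between -1.48 and -0.15. For SLC12A8, with a mean of -0.83, that culture gave -2.71 and the others lay between -1.22 and 0.06.

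Whether the FOXP1 over GFP ratio changed with time was tested over the 3 lines. With only 1 value per line this test can miss changes, so a lack of calls does not show that the ratio stayed the same. At 12 h against 0 h, 0 of 42 tested members and 0 of 33015 tested probes were called in limma (0% higher and 0% lower), with 1 member, SLC16A14, and 793 probes at an unadjusted p under 0.05. At 72 h against 0 h, 0 of 43 members and 0 of 33618 probes were called (0% higher and 0% lower), with 3 members, SLC35F1, SLC5A10 and SLC1A4, and 1774 probes at an unadjusted p under 0.05. The differences of the main members were already there at 0 h, as the levels above show for SLC18A1 and SLC6A12 in IMR-32, SLC7A8 in CHP-212 and SLC25A24 in SK-N-BE(2). SLC16A14, which was lower with FOXP1 in IMR-32, had a ratio lower at 12 h than at 0 h by 1.23 on the log2 scale in that line and by 0.34 in SK-N-BE(2) (adjusted p over the 3 lines = 0.907). In CHP-212 its probe was above background on no GFP array, so no change could be read there.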

How the data were processed

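Per the deposited files, the authors extracted the intensity of each spot from the scanned one-colour arrays with the scanner software's background subtraction, and the processed signal intensity was used here. It was expressed as log2 minus the log2 of the 75th percentile of the array, after removal of control spots and of 311 outlier spots, 1 of them in a member. The series matrix holds the authors' intensity after quantile normalisation, with a median of 144.373 in each column, and served as an alternative. Probe names came from the list of FOXP1 and GFP differences alone. Differences between lines were fitted in limma 3.58.1 (R 4.3.3) on the arrays of all 6 groups, changes with time on matched arrays of 1 slide with the culture as a block, and changes of the ratio on 1 value per line, all two-sided with p adjusted over all tested probes by the Benjamini-Hochberg method. A probe was tested between lines if well above background on at least 4 of 8 arrays and over time on at least 6 of 12. Described in full were the transmitter carriers, the 4 highest and 4 lowest differences per line among members without overlap and bright on all 4 arrays of the higher culture, the 3 highest and 3 lowest called per pair of lines, and up to 5 called per time comparison and direction. The members and lists were chosen with earlier results of these data known. The steps were also run on simulated data with planted changes. The simulated noise was independent between arrays, unlike that of time points of 1 culture, so nothing about the results is read from that run. Alternatives were a normexp-corrected signal (offset 50), quantile normalisation, the authors' values, other filters, blocks and tests, and leaving out each array or culture. The normexp-corrected signal, called background-corrected here, was computed from the median signal and background and not from the processed signal. Array number limits the precision.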

Additional observations from a re-analysis of the deposited data

Results flagged for a closer look

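A single array lay far from the other 3 of its group for 9 of 197 groups of 4 arrays, judged by the gap to its neighbour over the range of the group, which chance gives in about 1 in 20 groups. Of these 9, 3 were the SK-N-BE(2) array labelled FOXP1 at 24 h: SLC12A8 at -2.17 with the others between -4.93 and -4.69, SLC41A2 at -1.39 with the others between -4.89 and -4.62, and SLC8A1 at -1.05 with the others between -2.11 and -1.99. In the same culture SLC17A8 was at -0.59 at 72 h with the others between -2.37 and -2.16. In SK-N-BE(2) with GFP, SLC16A9 was at 1.25 at 12 h with the others between 1.11 and 1.12. In IMR-32, SLC38A5 was at 0.40 at 24 h with GFP with the others between 0.97 and 1.08, and SLC9A3R2 was at -1.81 at 0 h with FOXP1 with the others between -1.31 and -1.21. In CHP-212 with FOXP1, SLC20A2 was at 1.60 at 0 h with the others between 0.72 and 0.76, and SLC25A1 was at 1.05 at 72 h with the others between 1.74 and 1.84.

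For 15 of the 43 members counted in 2 or more lines, 18 pairs of lines had FOXP1 minus GFP differences of opposite sign at every one of the 4 times, as did 15.3% of all probes so counted. The members were chosen on the FOXP1 minus GFP difference, so nothing is read from their share. These differences between lines were not tested, and most of them are given here. The noradrenaline transporter SLC6A2 was at 3.06 in IMR-32 and -1.28 in SK-N-BE(2), and the vesicular carriers SLC32A1 at -0.59 in IMR-32 and 2.36 in SK-N-BE(2), SLC18A2 at 0.25 in SK-N-BE(2) and -1.28 in CHP-212, SLC18A3 at -0.53 in IMR-32 and 2.45 in CHP-212, and SLC17A8 at 2.00 in IMR-32 and -0.98 in CHP-212. Among ion carriers, SLC12A7 was at 1.32 in CHP-212, 0.43 in SK-N-BE(2) and -0.72 in IMR-32, SLC39A8 at 0.43 in IMR-32 and -1.23 in SK-N-BE(2), and SLC9A5 at -1.12 in IMR-32 and 0.18 in SK-N-BE(2). Among the others, SLC15A3 was at 1.01 in IMR-32 and -0.90 in SK-N-BE(2), SLC43A1 at 0.32 in SK-N-BE(2), -1.27 in IMR-32 and -0.36 in CHP-212, and SLC25A1 at -1.65 in IMR-32 and 0.39 in SK-N-BE(2). SLC35F1 was at -3.20 in IMR-32 and 1.09 in SK-N-BE(2), SLCO4A1 at 0.32 in SK-N-BE(2), -2.55 in IMR-32 and -1.30 in CHP-212, and SLC2A13 at -1.60 in IMR-32 and 0.47 in SK-N-BE(2).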

How the results depend on the processing

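No result changed sign among called values. Signal over background limits the dim members, and counts changed with the background-corrected signal, with the strictest filter and, at 12 h against 0 h, most with the block and the cultures used. With the background-corrected signal, 3 members were called between IMR-32 and SK-N-BE(2) in place of 6, 10 between CHP-212 and SK-N-BE(2) in place of 17 and 3 at 12 h against 0 h in place of 1, and the probes called were 5276 in place of 8531 between IMR-32 and SK-N-BE(2) and 1949 in place of 859 at 12 h. The members at least 2-fold apart without overlap were then 18 in IMR-32 and 7 in CHP-212. The background-corrected signal was computed from the median signal and background of each spot in place of the processed signal. Input and correction thus changed together, and which of these moved the counts was not tested. That alternative moved the median difference of all tested probes from -0.134 to 0.011 between CHP-212 and SK-N-BE(2), from 0.019 to -0.091 at 12 h and from -0.039 to -0.198 at 72 h. For FOXP1 minus GFP it moved that of all counted probes from -0.012 to 0.224 in IMR-32 and from 0.018 to 0.14 in CHP-212, and of the probes at least 2-fold apart without overlap 68.9% in place of 51.8% were higher in IMR-32 and 75.1% in place of 60.3% in CHP-212. Quantile normalisation moved it from -0.192 to -0.059 between IMR-32 and SK-N-BE(2), and the authors' values to -0.055. Requiring every array compared to be well above background left 0 members between IMR-32 and CHP-212 and 2 between IMR-32 and SK-N-BE(2), 6289 probes between IMR-32 and CHP-212 and 6606 between CHP-212 and SK-N-BE(2), and 17 and 6 members apart in IMR-32 and CHP-212, with fewer probes tested. Leaving out 1 array gave 1 to 1 members between IMR-32 and CHP-212, 3 to 5 between IMR-32 and SK-N-BE(2) and 13 to 17 between CHP-212 and SK-N-BE(2). For 12 h against 0 h, leaving out 1 culture gave 383 to 1192 probes, no filter gave 559, no culture block 72 probes and 0 members, GFP cultures only 0 probes and 0 members, and leaving out SK-N-BE(2), chosen after seeing the data, 76 probes and 0 members. Leaving out the CHP-212 slide of 0 and 12 h, also chosen after seeing the data, gave 1 member between IMR-32 and CHP-212. With time point as a replicate block 2, 6 and 17 members were called between lines, as in the main fit. With slide as a random block they were 2, 5 and 16, with both transgenes, 8 arrays against 8, they were 2, 6 and 14, and with the t-test of the methods after Benjamini-Hochberg adjustment they were 2, 5 and 16.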
